A study of Mus musculus with 3 samples.

Results

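The genes that make, carry and remove retinoic acid were described in single-cell RNA sequencing data of tendon cells derived from mouse embryonic stem cells and of the embryonic mouse tail. The 9 members were chosen by their roles in the pathway, and all 9 had a row in each of the 3 count files, of 27755 genes listed for the culture and the tail and 25936 for the earlier culture stage. They are the synthesis enzymes Aldh1a1, Aldh1a2, Aldh1a3 and Rdh10, the reductase Dhrs3, the breakdown enzymes Cyp26a1 and Cyp26b1, the retinol receptor Stra6 and the retinol carrier Rbp4. Each group was 1 library. D6 PM was the differentiated paraxial mesoderm stage of the culture, made from ScxGFP reporter stem cells that had been kept on mouse embryonic fibroblast feeders and taken through embryoid bodies with the BMP inhibitor LDN-193189 and the WNT activator CHIR. D10 culture was the differentiated tenocyte stage, after further treatment with TGFβ1, the hedgehog agonist SAG and FGF2, and no retinoid agent is given in the study's methods for either of these libraries. E14.5 tail was the whole tail of mouse embryos carrying the same Scx reporter. The 3 libraries thus differed in origin and stage and not in a single agent, and with 1 library per group no difference below has a replicate check.

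Retinol travels in blood bound to RBP4 and enters cells through STRA6. RDH10 oxidizes it to retinaldehyde, DHRS3 turns retinaldehyde back to retinol, and the ALDH1A enzymes oxidize retinaldehyde irreversibly to retinoic acid, which binds the nuclear receptors RAR and RXR. The CYP26 enzymes clear retinoic acid, so that tissues with ALDH1A enzymes act as sources and tissues with CYP26 enzymes as sinks. In the embryo Aldh1a2 is known from the somites, Cyp26a1 from the tail bud and Cyp26b1 from limb and skeletal primordia, and retinoic acid is known to restrain cartilage formation.

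Depth was counted in UMIs (unique molecular identifiers, 1 per captured mRNA molecule), of which a cell had 5622 in the D10 culture, 13512 in the tail and 8171 in D6 PM at the median. The cells numbered 7821, 2052 and 5954. The 9 members together took 10403, 3738 and 17890 UMIs. Levels are CPM (counts of a gene scaled to parts per 1 M counted molecules), with UMIs summed over the cells of a cluster code, the number that the authors' own clustering gave each cell. UMIs are read at the 3′ end, 1 per molecule, so that CPM needs no scaling by gene length, although genes may differ in how well they are captured. All intervals are exact 95% intervals and cover counting error only. The clusters were made from the same cells and genes, so that a level by code, or a ratio between codes, is a description and carries no test.

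Codes were checked against marker lists. D6 code 4 was somite-like, with all 12 somite markers detected and a summed level of 1238 CPM against 41.1 to 163 in the other D6 codes, and D6 code 2 and culture code 3 were pluripotent-like. Code 4 of the culture and of the tail was cartilage-like, with summed cartilage markers of 5610 and 10527 CPM, and code 1 of either library held summed tendon markers of 7269 and 6333 CPM, although tail code 1 was led by Myh11, Col6a6 and C1qtnf3. Code 2 was led by Mxd3 and other cell cycle genes in both libraries. The other codes are called by number and leading genes. D6 codes 1 and 3 shared high Krt8 and Krt18, with D6 code 1 led by Pomc and Rbp4 and D6 code 3 by cell cycle genes. D6 code 5 was led by Lyz2, Ctsk and Lox and was high in Col1a1. Culture code 8 was led by Gcg, Pga5 and Pyy, and culture code 7 and tail code 7 had medians of 1424 and 1881 UMIs and stay unnamed.

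Promoters of 4 members are shown here, for the enzyme pair that breaks down retinoic acid, for the synthesis enzyme of the somite-like cells, and for the carrier, which shared its D6 codes with Cyp26a1 and lies 415083 bases from it on chromosome 19. They come from RefSeq on GRCm38.p6, 5′ to 3′ on the gene's own strand, with 250 bases before the start and 50 after it, and 7 of the 9 members had such windows. In the Cyp26a1 window (chr19:37697558-37697857, plus strand) the capitals mark a pair of retinoic acid receptor half-sites in direct repeat with 5 bases between them, read on the opposite strand as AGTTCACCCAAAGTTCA and lying 32 to 16 bases before the start. In the Cyp26b1 window (chr6:84593761-84594060, minus strand) and the Rbp4 window (chr19:38124762-38125061, minus strand) they mark TATAAA. It lies 139 to 134 bases before the start in Cyp26b1 and 28 to 23 bases before it in Rbp4. The Cyp26a1 window also holds TATAAA, 29 to 34 bases after the start, left in lower case. The Aldh1a2 window (chr9:71215539-71215838, plus strand) has no capitals and is shown for its 50 CpG dinucleotides, where the median over all windows was 7.
Cyp26a1: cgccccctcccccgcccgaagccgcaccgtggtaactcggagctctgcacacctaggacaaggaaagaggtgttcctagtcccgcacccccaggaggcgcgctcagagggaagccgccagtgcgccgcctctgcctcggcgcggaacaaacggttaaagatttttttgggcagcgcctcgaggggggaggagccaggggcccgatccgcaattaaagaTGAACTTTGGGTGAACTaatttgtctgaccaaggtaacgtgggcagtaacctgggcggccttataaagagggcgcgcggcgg
Cyp26b1: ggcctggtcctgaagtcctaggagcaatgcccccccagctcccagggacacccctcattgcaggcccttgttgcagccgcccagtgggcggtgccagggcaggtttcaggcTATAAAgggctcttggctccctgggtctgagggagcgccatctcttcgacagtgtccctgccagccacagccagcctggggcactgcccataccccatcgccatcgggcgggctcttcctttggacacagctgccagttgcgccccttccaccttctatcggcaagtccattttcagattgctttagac
Aldh1a2: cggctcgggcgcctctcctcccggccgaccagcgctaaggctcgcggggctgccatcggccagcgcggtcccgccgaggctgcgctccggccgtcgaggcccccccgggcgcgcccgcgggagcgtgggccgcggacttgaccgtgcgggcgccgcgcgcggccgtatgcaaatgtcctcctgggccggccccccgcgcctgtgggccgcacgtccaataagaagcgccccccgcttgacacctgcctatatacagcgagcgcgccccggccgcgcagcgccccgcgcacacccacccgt
Rbp4: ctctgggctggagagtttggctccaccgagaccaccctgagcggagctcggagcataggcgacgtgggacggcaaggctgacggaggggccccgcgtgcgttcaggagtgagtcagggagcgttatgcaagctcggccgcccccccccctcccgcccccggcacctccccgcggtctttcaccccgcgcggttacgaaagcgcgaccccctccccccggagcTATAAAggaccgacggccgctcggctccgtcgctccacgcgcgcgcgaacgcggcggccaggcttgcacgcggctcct
Half-sites were searched as AGGTCA or AGTTCA or GGGTCA or GGTTCA on both strands. A pair 5 bases apart was found in 32 of 32851 mouse windows (0.0974%), and among the 14 windows of the members only in that of Cyp26a1. TATAAA was found in 13.6% of all windows on either strand. A match of letters is a description and does not show that a factor was bound.

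In each library the summed ALDH1A level and the summed CYP26 level were highest in different codes, as the plot of levels by code shows, whereas Rbp4 and Cyp26a1 were both highest in D6 code 1 and culture code 8. Aldh1a1 was near the limit of detection everywhere, with 12 UMIs in the whole culture, 28 in the tail, 12 of them in a single cell, and 13 in D6 PM. Aldh1a2 was, by summed UMIs, the main ALDH1A transcript of the D6 somite-like cells and of tail codes 1 and 2. Aldh1a3 was all but absent at D6, with 8 UMIs in 5954 cells. At D10 it was the main ALDH1A transcript of every culture code with ALDH1A UMIs except code 8. It was highest in culture codes 1, 2 and 7. Cyp26b1 was highest in the cartilage-like code of both later libraries and in D6 code 5, whereas Cyp26a1 was highest in culture codes 8 and 13 and in D6 codes 1 and 3.

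**Figure D1:**
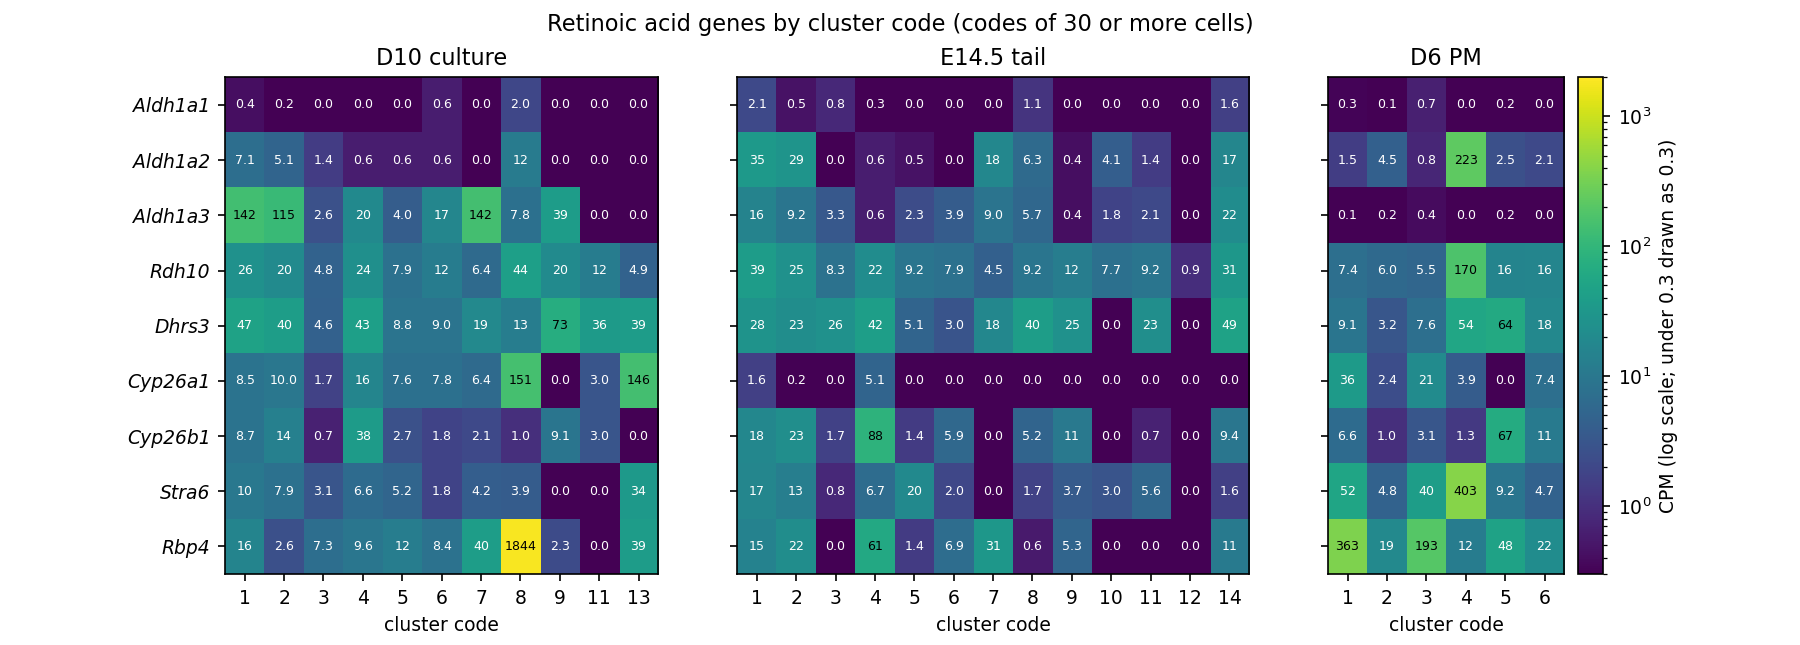
Level of each member (rows) in every cluster code of at least 30 cells (columns) of the 3 libraries, in CPM of summed UMIs on a logarithmic color scale with the value printed in each cell. Aldh1a2 reaches 223 CPM in D6 code 4, Aldh1a3 142 CPM in D10 culture code 1, Cyp26b1 88.3 CPM in tail code 4 and Rbp4 1844 CPM in culture code 8.

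In the somite-like D6 code 4 the uptake and synthesis genes were high together and the breakdown genes were low. Aldh1a2 stood at 223 CPM (211 to 235), against 1.49, 4.52, 0.79, 2.54 and 2.11 CPM in codes 1, 2, 3, 5 and 6. Code 4 therefore held 92.7% of the library's Aldh1a2 UMIs in 11.8% of its cells. Rdh10 was 170.4 CPM in code 4 and at most 16.4 CPM elsewhere. Stra6 was the most abundant member of the code at 403 CPM (387 to 419), with 52.4 CPM in code 1, 40.3 CPM in code 3 and 4.75 to 9.16 CPM in codes 2, 5 and 6. Cyp26a1 and Cyp26b1 were 3.95 and 1.32 CPM in code 4, so that the summed ALDH1A level was 42.3 times (29.9 to 62.2) the summed CYP26 level. Aldh1a2 was found in 62.4% of code 4 cells at a median of 7709 UMIs and in 0.67% of code 1 cells at a median of 7406 UMIs.

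In codes 1, 3, 5 and 6 the balance was the other way. The ALDH1A sum over the CYP26 sum was 0.044 in code 1, 0.076 in code 3, 0.043 in code 5 and 0.11 in code 6, and 1.44 in the pluripotent-like code 2, where both sums were under 5 CPM. Codes 1 and 3 carried Cyp26a1 at 35.9 CPM (33.2 to 38.7) and 21.1 CPM (18.0 to 24.6), whereas code 5 had no Cyp26a1 UMI in 662 cells, whose exact interval reaches 0.63 CPM, and carried Cyp26b1 instead at 66.6 CPM (60.2 to 73.6). Codes 1 and 5 were thus the Cyp26a1 and the Cyp26b1 codes of the D6 library. Dhrs3, which acts against Rdh10, was 64.1 CPM in code 5 and 54.1 CPM in code 4, and 3.20 to 18.5 CPM in the other codes.

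**Figure D2:**
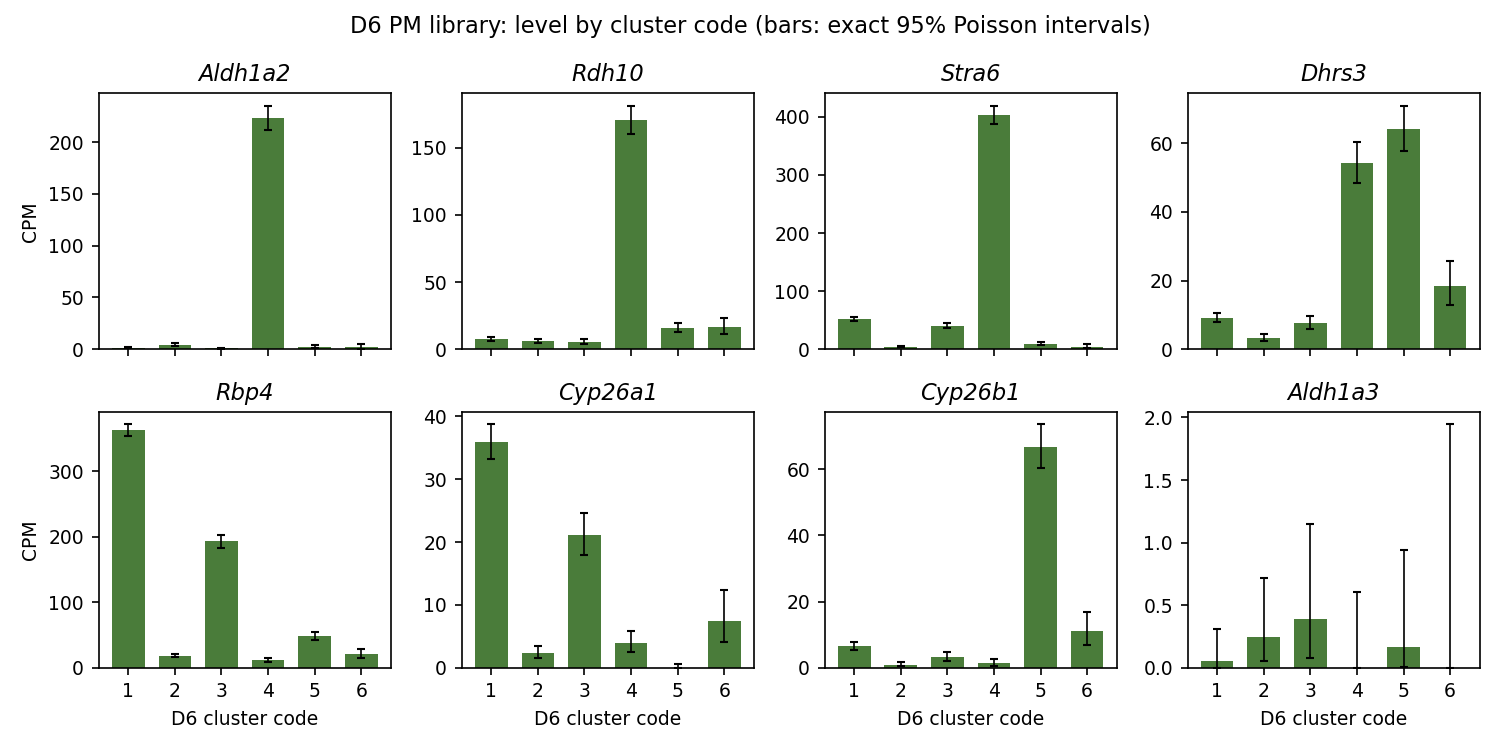
Level in CPM (vertical axes, each with its own scale) of 8 members in the 6 cluster codes of the D6 PM library, with exact 95% Poisson intervals for counting error. Aldh1a2, Rdh10 and Stra6 peak in code 4, Rbp4 and Cyp26a1 in code 1 and Cyp26b1 in code 5, and Aldh1a3 does not pass 0.4 CPM in any code.

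Each D6 code was also set against all other cells of the library, counting a gene as different at 2-fold or more if at least 10% of the cells of either side had a UMI. These comparisons share cells. Here and below, shares of all genes are of the genes that met the same condition. A gene can meet it through its higher side alone, which favors a difference, so the counts of members are a description. In code 4 this held for Aldh1a2, Rdh10, Dhrs3 and Rbp4, with Aldh1a2 in 62.4% of cells against 1.43%. For code 4, 5 of the 5 members that met the condition on cells differed, and 18.4% of all genes did (10.1% higher and 8.26% lower). Aldh1a2 was 95.4-fold higher (78.3 to 117), Rdh10 20.8-fold (18.5 to 23.5), Stra6 13.4-fold (12.5 to 14.3) and Dhrs3 3.67-fold (3.20 to 4.19). Rbp4 was at least 12.3-fold lower by the lower end of its interval, since 24 of its 74 UMIs in code 4 lay in 1 cell and its level there is not counted as expression (given with the keratins of code 1). The size of the Aldh1a2 ratio rested on the few UMIs of the other cells, since it became 141 without the cells called as doublets, 146 as a mean over cells and 424 without the 1% of cells with most Aldh1a2 UMIs on each side.

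For code 1, 4 of 5 members differed, against 13.9% of all genes (4.43% higher and 9.49% lower). Rbp4 was 5.82-fold higher (5.54 to 6.12), and Aldh1a2, Rdh10 and Dhrs3 were 28.7-fold, 5.10-fold and 2.73-fold lower. Cyp26a1, found in 9.06% of code 1 cells and thus just under the condition on cells, was 35.9 CPM against 6.77 CPM, a ratio of 5.30 (4.55 to 6.19). That ratio was larger without the 1% of cells with most Cyp26a1 UMIs, as given with the processing. For code 5, 4 of 5 members differed, against 40.6% of all genes (17.1% higher and 23.5% lower), so that code 5 stood apart from the rest in a large share of what was measured. Cyp26b1 was 16.6-fold higher (13.9 to 19.8) and Dhrs3 4.70-fold higher (4.12 to 5.35), and Stra6 and Rbp4 were 8.97-fold and 3.79-fold lower. The Cyp26b1 ratio was 9.89 as a mean over cells and 31.8 without the 1% of cells with most Cyp26b1 UMIs.

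Other genes of the pathway were read from a list of 34, of which 30 were in the D6 file. In code 4, 13 met the condition on cells and 3 were higher, as were 10.1% of all genes. Among them were the retinoic acid carriers Crabp2 (6.40-fold) and Fabp5 (2.91-fold). Of 9 known retinoic acid response genes, 6 met it and 4 were higher in code 4, against the same 10.1% of all genes, among them Hoxb1 at 39.6 CPM against 1.62 CPM, Nrip1 at 186 against 74.9 CPM, and Crabp2, which belongs to both lists. In code 1 the response gene Rarb (35.7 against 13.3 CPM) was higher, and Crabp1, Crabp2, Rarg and Fabp5 were lower. In code 5, 5 of 14 pathway genes were higher, led by Crabp1 at 742 against 12.6 CPM and the receptor Rarg at 58.2 against 7.66 CPM, and 3 were lower, where 17.1% of all genes were higher and 23.5% lower. Over all genes the median ratio was 1.07 in code 4, 0.94 in code 1 and 0.86 in code 5.

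Rbp4 was widespread at D6 but uneven between cells. It was 363 CPM (355 to 372) in code 1 and 193 CPM (183 to 203) in code 3, with a UMI in 34.9% and 32.8% of cells and up to 151 UMIs in a cell. Codes 2, 4 and 6 held 18.7, 12.2 and 21.6 CPM, which was 5.15%, 3.35% and 5.95% of the level in code 1. Krt8 and Krt18, keratins of simple epithelia, stood in the same 3 codes at 4.39% to 8.66% of their level in code 1. Other genes of code 1 were further off, with the epithelial adhesion gene Epcam at 38.8% in code 2, Cyp26a1 at 20.6% in code 6, and Cyp26a1 at 3.95 CPM in code 4 against 35.9 CPM in code 1. The Rbp4 of codes 2, 4 and 6 is not counted as expression here, and the part of free RNA in it was not tested. In code 5 Rbp4 was 48.3 CPM, 13.3% of its level in code 1, where Krt8 and Krt18 were 2.58% and 2.43% and Cyp26a1 was 0. A single cell held 33.3% of the Rbp4 UMIs of code 5.

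Within D6 code 4 the synthesis and uptake genes were found together about as often as independent detection gives. With every cell thinned to 3000 UMIs, 606 cells of the code could be used. Aldh1a2 was found in 248 of them, Rdh10 in 241 and Stra6 in 406. Aldh1a2 and Rdh10 were found together in 100 cells where 98.6 were expected if the 2 detections were independent, Aldh1a2 and Stra6 in 157 against 166, and Rdh10 and Stra6 in 170 against 161. None of these ratios had an interval that left out 1. The intervals here and for other pairs are Poisson intervals of the cells with both, with the expected number held fixed. They are wide for genes found in many cells, so a small departure from 1 could be missed. Cells with at least 2 Aldh1a2 UMIs (276 cells) and cells with none (263 cells) had like levels of Rdh10 (169.5 and 159.5 CPM) and Stra6 (399 and 415 CPM).

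In D6 code 1 the cells with Cyp26a1 were other cells than those with Stra6 or Rbp4 more often than independent detection gives. Cyp26a1 was found in 133 of 2091 thinned cells. It was found with Rbp4 in 20 cells against 36.5 expected (ratio 0.55, 0.33 to 0.85) and with Stra6 in 7 against 18.1 (ratio 0.39, 0.16 to 0.80). Stra6 and Rbp4 were found together in 84 cells against 78.2. The genes that went with each member in this code were picked after their values were seen, and are a description. The 230 cells with Cyp26a1 had 91.7 CPM of Fgf8, a growth factor of early embryonic signaling centers, against 10.9 CPM in the 2309 cells without it. They also had more Fgf5 (278 against 51.5 CPM), Hhex (66.1 against 10.2 CPM) and Otx2 (358 against 83.3 CPM), the last a transcription factor of the anterior embryo. Hotairm1 (16.3 against 83.9 CPM) and Mnx1 (17.6 against 69.0 CPM) were lower there. The 219 cells with at least 2 Stra6 UMIs had less Otx2 (41.7 against 141 CPM) than the cells without it. The 174 cells with at least 10 Rbp4 UMIs had more Ttr (80.8 against 6.12 CPM), which carries RBP4 in blood, and less Fgf5 (12.9 against 115 CPM). Depth differed between these cells as well, with a median of 9291 UMIs in the cells with Cyp26a1 and 7253 UMIs in those without, and its part in the levels was not tested.

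In D6 code 5, Dhrs3 and Cyp26b1 were found together in 14 of 472 thinned cells against 6.25 expected (ratio 2.24, 1.22 to 3.76). The 59 cells with at least 2 Cyp26b1 UMIs had 139 CPM of Dhrs3 against 48.7 CPM in cells without Cyp26b1, and, among genes picked after their values were seen, more of the matrix genes Col7a1 (201 against 31.5 CPM) and Lum (274 against 60.8 CPM), at a median of 16237 against 7471 UMIs.

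**Figure D3:**
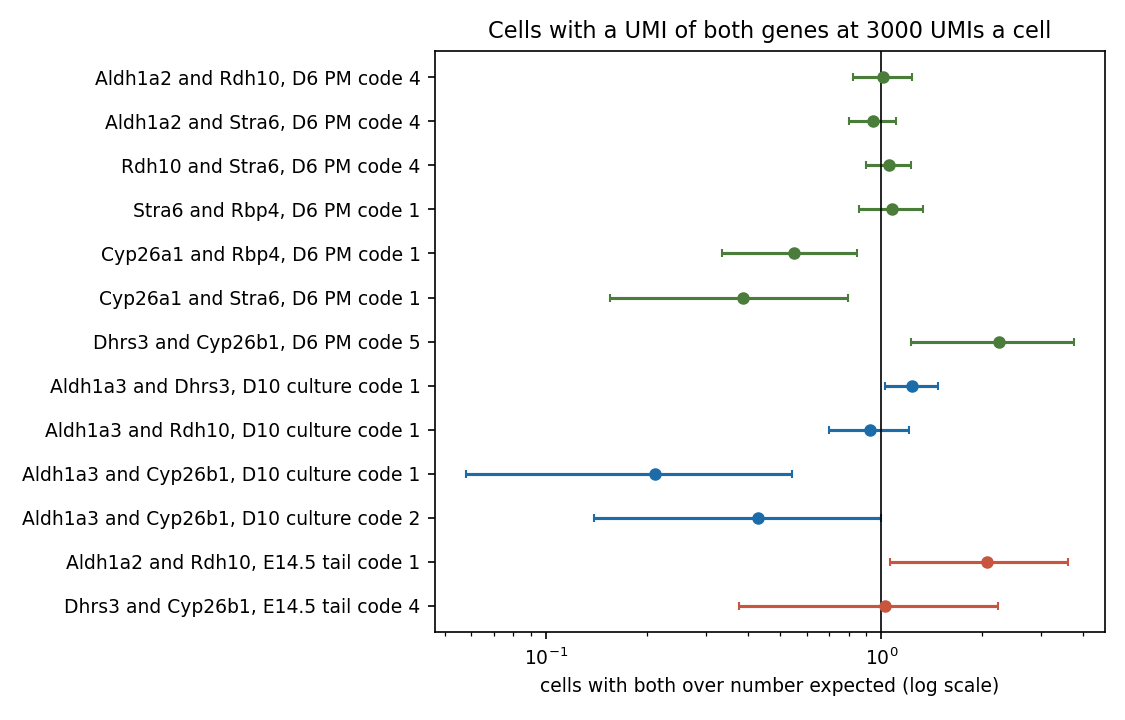
Number of cells with a UMI of both genes over the number expected from independent detection within the code, at 3000 UMIs a cell, on a logarithmic axis. Bars are 95% Poisson intervals of the cells with both, with the expected number held fixed. The plotted pairs of Aldh1a2, Rdh10 and Stra6 in D6 PM code 4 lie between 0.94 and 1.05, the pairs of Cyp26a1 in D6 PM code 1 lie at 0.39 and 0.55, and Aldh1a3 with Cyp26b1 in D10 culture code 1 lies at 0.21.

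By summed UMIs, Aldh1a2 and not Aldh1a3 was the main ALDH1A transcript of the tail. It was 35.4 CPM (31.8 to 39.2) in code 1 and 28.9 CPM (24.0 to 34.4) in code 2, whose intervals overlap, 17.9 CPM in code 7, 17.2 CPM in the Foxd3- and Sox10-high code 14 and 6.31 CPM in the Krt4- and Upk1b-high code 8. In the remaining codes, 3, 4, 5, 6, 9, 10, 11 and 12, it did not pass 4.15 CPM, and the cartilage-like code 4 had 2 UMIs in 241 cells. The Aldh1a2 UMIs of code 1 lay in a minority of its 685 cells, 26 with 1 UMI and 61 with 2 or more. Aldh1a3 was 15.6 CPM in code 1, 9.24 CPM in code 2 and 21.9 CPM in code 14, and 0.60 CPM in code 4. Rdh10 was broader, at 38.6 CPM in code 1, 31.4 CPM in code 14, 25.4 CPM in code 2 and 22.1 CPM in code 4, and 0.94 to 12.3 CPM in the others.

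The tail was nearly without Cyp26a1. It had 34 UMIs in 2052 cells, 17 of them in code 4 and 16 in code 1, and 10 of those 16 lay in a single cell. Cyp26b1 was 88.3 CPM in code 4, found in 53.1% of its cells, and 23.3 CPM in code 2, 17.8 CPM in code 1, 10.7 CPM in the Cpa3- and C1qb-high code 9 and 9.41 CPM in code 14. Code 4 held 46.6% of the tail's Cyp26b1 UMIs in 11.7% of its cells. Dhrs3 was spread over many codes, at 22.9 to 48.6 CPM in codes 1, 2, 3, 4, 8, 9, 11 and 14, and 0 to 17.9 CPM in the Myog-high code 5, the haemoglobin-high codes 6 and 12, the low-depth code 7 and the Neurod6-high code 10.

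Stra6 had its highest tail level in code 5, led by Myog and Actc1, at 19.8 CPM (14.4 to 26.7), an interval that holds the 17.3 CPM of code 1, and as a mean over cells code 1 was the highest. It was 12.9 CPM in code 2, 6.65 CPM in code 4 and 0 to 5.65 CPM elsewhere. Rbp4 was 60.8 CPM (52.7 to 69.8) in code 4, 31.4 CPM on 7 UMIs in code 7, 22.2 CPM in code 2 and 14.8 CPM in code 1. Of the 201 Rbp4 UMIs of tail code 4, 68.7% lay in 10 cells.

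The study set fibrocartilage cells against tendon cells. Here the cartilage-like code 4 was set against code 1, chosen by their markers in these files and not matched to the cluster numbers of the study. In the tail, 4 of 6 members that met the condition on cells differed at 2-fold, against 9.93% of all genes (3.65% higher and 6.28% lower). Cyp26b1 was 4.97-fold higher in code 4 (4.11 to 6.01) and Rbp4 4.10-fold higher (3.30 to 5.10), whereas Aldh1a2 was 58.5-fold lower (16.1 to 485) and Stra6 2.60-fold lower (1.66 to 4.25). In code 1 Aldh1a2 was found in 12.7% of cells. Aldh1a2, Stra6 and Rbp4 met the condition only through the code where they were higher. Rdh10 was 0.57 times and Dhrs3 1.52 times its level in code 1, under the 2-fold line. In the culture 2 of 4 members differed, against 4.90% of all genes (1.54% higher and 3.36% lower). Cyp26b1 was 4.33-fold higher in code 4 (3.38 to 5.54) at 37.6 against 8.68 CPM. Aldh1a3 was 7.24-fold lower (5.66 to 9.41) at 19.5 against 142 CPM. Both genes met the condition only through the code where they were higher.

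Both libraries thus had more Cyp26b1 and less of the ALDH1A enzymes in the cartilage-like code. The ALDH1A sum over the CYP26 sum was 8.68 (7.67 to 9.84) in culture code 1 and 0.37 (0.28 to 0.50) in culture code 4, and 2.74 (2.32 to 3.24) in tail code 1 and 0.016 (0.0052 to 0.038) in tail code 4. Rdh10 and Dhrs3 were level between the codes of the culture, with ratios of 0.94 (0.73 to 1.19) and 0.91 (0.75 to 1.09). Cyp26a1 was found in under 10% of cells of each code and was 16.2 against 8.50 CPM in the culture and 5.14 against 1.58 CPM in the tail.

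The Rbp4 ratio differed between the libraries, at low levels in the culture. In the culture it was 9.62 CPM in code 4 and 16.1 CPM in code 1, a ratio of 0.60 (0.40 to 0.86), against 4.10 in the tail. Of the 267 Rbp4 UMIs of culture code 1, 118 lay in a single cell and 89.1% in 10 cells. The 4 cells of code 1 with at least 10 Rbp4 UMIs also had 13278 CPM of Afp, and Alb and Ttr at 1858 and 1614 CPM, with a summed endoderm marker level of 16897 CPM against 25.6 CPM in cells without Rbp4. Without the 1% of cells with most Rbp4 UMIs in each group the culture ratio was 3.87 and the tail ratio 6.94. The Rbp4 of culture codes 4 and 1 was 0.52% and 0.87% of its level in culture code 8, where Krt8 stood at 0.40% and 0.33%. Other genes of code 8 were less alike, with Ttr at 0% and 0.96%, Afp at 0.33% and 2.80%, and Cyp26a1 at 10.7% and 5.62%. At these low levels, and with most Rbp4 UMIs of code 1 in 10 cells, neither culture ratio is read as a difference in expression. The part of free RNA was not tested.

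**Figure D4:**
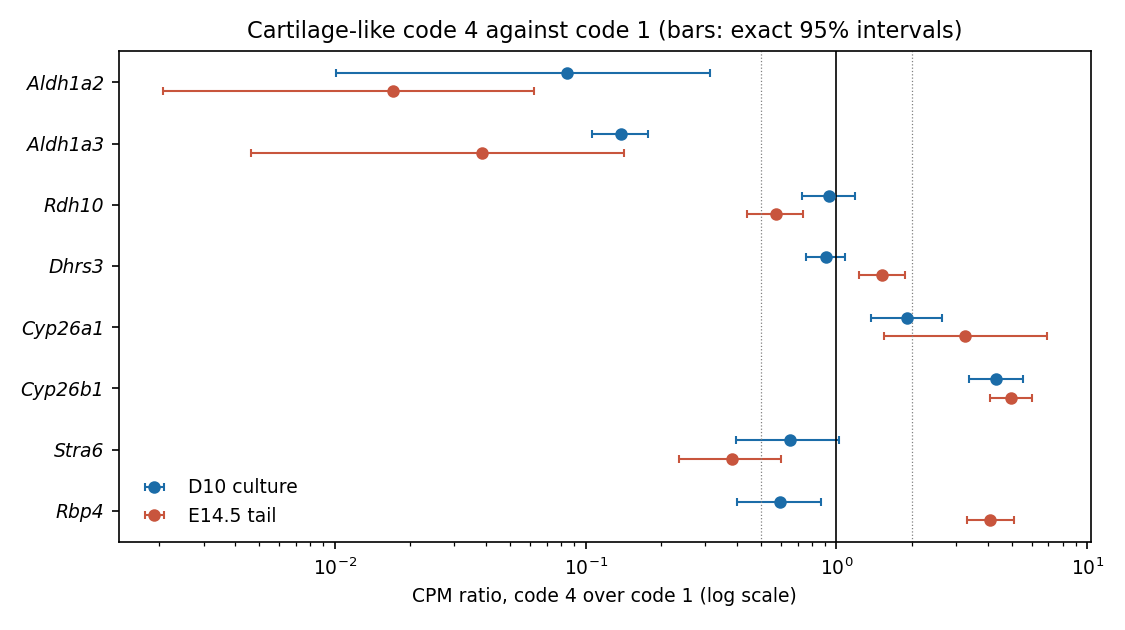
Ratio of CPM in the cartilage-like code 4 over code 1 (logarithmic axis) for 8 members in the D10 culture and the E14.5 tail, with exact 95% intervals for counting error and dotted lines at 2-fold. Cyp26b1 lies at 4.33 and 4.97, the ALDH1A genes lie under 0.2 in both libraries, and Rbp4 lies on opposite sides of 1.

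Among the other pathway genes, 11 met the condition on cells in the culture and none differed at 2-fold between codes 4 and 1, as 4.90% of all genes did. In the tail 5 of 16 differed, against 9.93% of all genes. Fabp5 (4.62-fold) and Rarg (2.56-fold) were higher in code 4, and Rarb (5.63-fold) and Crabp1 (2.73-fold) were among those lower. Rarb, itself a target of retinoic acid, was 5.44 CPM in tail code 4 and 30.6 CPM in tail code 1. Of the response genes, few met the condition, and 0 of 3 differed in the culture and 3 of 5 in the tail, against the same shares of all genes, where Tgm2 was higher in code 4 (12.1 against 3.36 CPM).

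Inside code 1 the same genes also parted by cell. In the culture Aldh1a3 was found in 779 of 2595 thinned cells and Cyp26b1 in 63, with both in 4 cells against 18.9 expected (ratio 0.21, 0.058 to 0.54). In culture code 2 both were found in 5 cells against 11.7 (ratio 0.43, 0.14 to 0.999). Aldh1a3 and Dhrs3 were found together in 119 cells of culture code 1 against 96.4 (ratio 1.23, 1.02 to 1.48), but in 27 cells of culture code 2 against 28.3 (ratio 0.95, 0.63 to 1.39). The 1151 cells of code 1 with Aldh1a3 had a summed cartilage marker level of 721 CPM, against 1250 CPM in the 1813 cells without it, and the 112 cells with Cyp26b1 had 1824 CPM against 960.0 CPM. Among genes picked after their values were seen, Thbs4 (123.5 against 54.5 CPM) and Cd34 (80.1 against 28.3 CPM) were higher in cells with Aldh1a3, and Matn4 (167 against 55.9 CPM) and Col2a1 (544 against 204 CPM) in cells with Cyp26b1. Summed tendon markers were alike in the cells with and without Aldh1a3, at 7382 and 7166 CPM.

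In tail code 1 Aldh1a2 was found in 12.7% of cells. The genes named beside the members here were picked after their values were seen, and are a description. The 61 cells with at least 2 Aldh1a2 UMIs had 235 CPM of Tcf21 and 126 CPM of Foxf1, transcription factors of visceral and fibroblast-forming mesoderm, against 13.2 and 15.9 CPM in the 598 cells with none. Their summed tendon markers were 3035 against 6609 CPM and their summed smooth muscle markers 1207 against 434 CPM. They held more Stra6 (53.9 against 12.7 CPM), Dhrs3 (73.4 against 23.7 CPM) and Rdh10 (59.6 against 34.7 CPM), and less Cyp26b1 (2.29 against 19.8 CPM). At 3000 UMIs, Aldh1a2 and Rdh10 were found together in 12 cells against 5.83 (ratio 2.06, 1.06 to 3.60). The 42 cells with at least 2 Cyp26b1 UMIs had more Msx1 (223 against 11.3 CPM) and Alx1 (77.3 against 1.86 CPM), with tendon markers of 8169 against 6126 CPM and cartilage markers of 1150 against 417 CPM. Median depths were 12769 and 13494 UMIs for cells with and without Aldh1a2, and 12608 and 13488 UMIs for Cyp26b1.

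The series compares derived cells with embryonic ones, and so culture and tail were compared within a code. The 2 libraries differed in depth and handling as well as in origin, and these cannot be told apart. In code 1, 3 of 6 members differed at 2-fold, against 19.4% of all genes (5.76% higher and 13.6% lower). Aldh1a3 was 9.07-fold higher in the culture (7.72 to 10.7), at 142 CPM against 15.6 CPM. Aldh1a2 was 4.97-fold lower (4.03 to 6.17), at 7.11 against 35.4 CPM, and Cyp26b1 2.05-fold lower (1.64 to 2.57). Aldh1a2 was found in 2.83% of the culture cells and 12.7% of the tail cells of the code. The Aldh1a2 difference was larger without the 1% of cells with most of its UMIs, as given with the processing. In code 2, 3 of 7 differed, against 19.1% of all genes (5.50% higher and 13.6% lower), with Aldh1a3 12.5-fold higher (9.12 to 17.6) and Aldh1a2 5.62-fold lower. Rbp4 was at least 5.5-fold lower by the lower end of its interval. Its level in culture code 2 was 0.14% of that in culture code 8 and is not counted as expression. In tail code 2 these genes lay in few of the 186 cells, since 10 cells held 84.4% of the Rbp4 UMIs and 87.2% of the Aldh1a2 UMIs. In code 4, 2 of 4 differed, against 17.9% of all genes (4.86% higher and the rest lower), with Cyp26b1 2.35-fold lower in the culture. Rbp4 was at least 4.33-fold lower there by the lower end of its interval, since its culture level is not counted as expression. As a mean over cells only 1 of the 4 passed the line in code 4.

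The ALDH1A gene with most summed UMIs in codes 1 and 2 thus differed between the libraries. In code 1 Aldh1a3 made up most of the ALDH1A sum of 149 CPM in the culture and Aldh1a2 most of the 53.0 CPM in the tail. Aldh1a3 was found in 38.8% of those culture cells and Aldh1a2 in 12.7% of those tail cells. Dhrs3 was 1.70 times (1.48 to 1.96) and Rdh10 0.67 times (0.59 to 0.78) its tail level, both short of 2-fold, and the median ratio over all genes was 0.87. Cyp26a1 was low in both but higher in the culture, at 8.50 against 1.58 CPM in code 1 and 9.99 against 0.23 CPM in code 2. Rbp4 in code 1 was 16.1 against 14.8 CPM, a ratio of 1.09 that became 0.095 without the 1% of cells with most of its UMIs.

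The carriers and a receptor also differed between the libraries. Crabp1 and Crabp2 were lower in the culture in codes 1, 2 and 4, by 17.9-fold, 16.2-fold and 5.32-fold for Crabp1 and 3.54-fold, 2.53-fold and 3.83-fold for Crabp2. The lipid receptor Scarb1 was higher by 2.87-fold, 2.93-fold and 2.84-fold. Rarb was 2.69-fold lower in code 1 and 2.85-fold lower in code 2. In all, 6 of 16, 9 of 16 and 6 of 15 pathway genes differed in codes 1, 2 and 4, where 19.4%, 19.1% and 17.9% of all genes did.

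Other codes of the culture held the highest levels of single members. Culture code 8 had 1844 CPM of Rbp4 (1762 to 1929) in 155 cells, with 496 of its 1890 UMIs in 1 cell, and 151 CPM of Cyp26a1 (128 to 177). In both genes 10 cells held most of the UMIs, 73.3% for Rbp4 and 70.3% for Cyp26a1, and the levels without those cells were 526 and 48.3 CPM. Culture code 13, led by Srgn, Cubn and Aqp8, had 146 CPM of Cyp26a1 (111 to 188) in 43 cells and no ALDH1A UMI, and its 14 UMIs of Stra6 gave 34.0 CPM. Aldh1a3 was 142 CPM in culture code 7 on 67 UMIs, the same as in code 1, and Scx, the transcription factor of tendon cells, was 2388 CPM there and 2410 CPM in code 1. Col1a1, however, was 233 CPM in code 7 against 2741 CPM in code 1, and Krt8 was 655 CPM against 9.70 CPM. Code 9 of 53 cells had the highest Dhrs3, at 72.9 CPM (49.9 to 103). In the pluripotent-like code 3 no member passed 7.33 CPM.

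**Figure D5:**
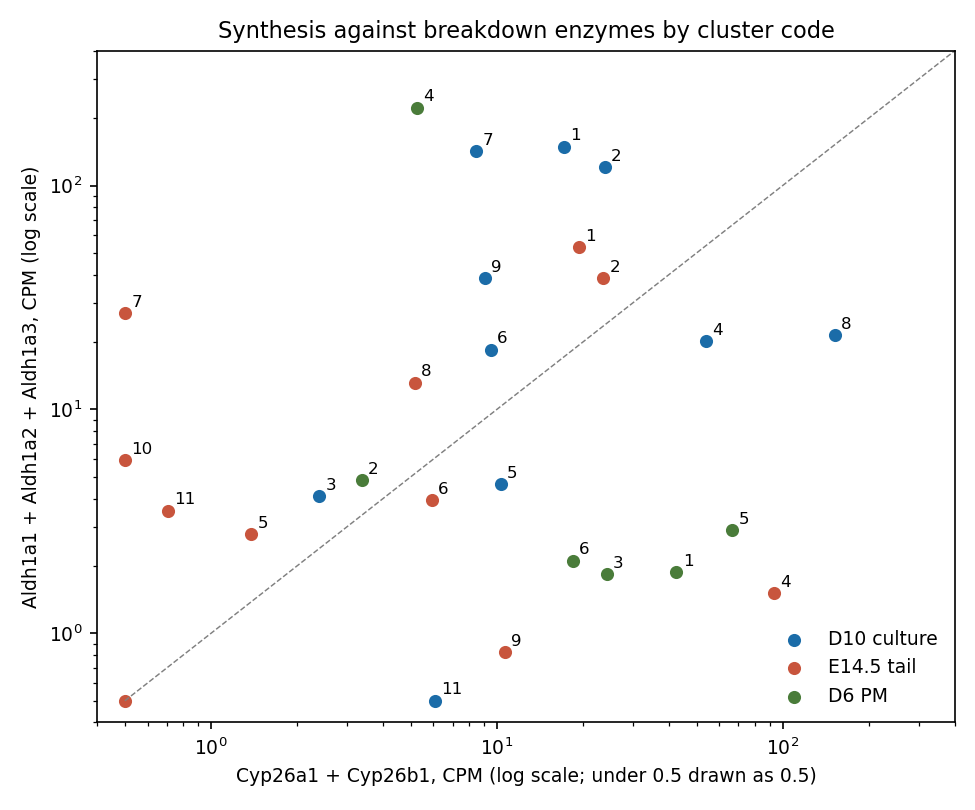
Sum of Aldh1a1, Aldh1a2 and Aldh1a3 (vertical axis) against the sum of Cyp26a1 and Cyp26b1 (horizontal axis), both in CPM on logarithmic axes, for each cluster code of at least 50 cells, numbered and colored by library. The dashed line marks equal sums, sums under 0.5 are drawn at 0.5, and the point without a number is tail code 12, with 0 UMIs of each. D6 code 4 lies farthest above the line among codes with CYP26 UMIs, at a ratio of 42.3, and tail code 4 farthest below it among codes with ALDH1A UMIs, at 0.016.

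Between the stages, the tendon-marker-high D10 code 1 was set against the somite-like D6 code 4. Of 5 members 4 differed, against 20.7% of all genes (9.88% higher and 10.8% lower). Aldh1a3 had 0 UMIs in 700 cells of D6 code 4 and 2348 UMIs in D10 code 1, which makes it at least 233-fold higher by the lower end of the exact interval, and 287-fold against a floor of 3 counts. Stra6 was 39.8-fold lower (34.0 to 46.8), Aldh1a2 31.3-fold lower (26.0 to 38.2) and Rdh10 6.55-fold lower (5.84 to 7.34). Dhrs3 was nearly level, at 47.4 against 54.1 CPM. Of 6 response genes that met the condition on cells, 2 were lower and 4 passed the line in neither direction. Hoxb1 was lower at 0.24 CPM in D10 code 1 against 39.6 CPM in D6 code 4. Of 14 other pathway genes that met it, 3 were higher, namely Rarg (8.04-fold), Fabp5 and Scarb1, and 1 was lower, Crabp1. The shares of all genes were those given above, 9.88% higher and 10.8% lower. The summed ALDH1A level was 149 CPM at D10 and 223 CPM at D6. In the pluripotent-like cells, D10 code 3 against D6 code 2, no member was found in 10% of cells, and 7.14% of all genes differed (4.14% higher and the rest lower).

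Across the 27 codes of at least 50 cells, the genes whose log2(CPM + 1) went most with each member were listed, as a description over points that share 3 libraries. Aldh1a2 went with Slc6a13 (r = 0.67), Bmp3 (r = 0.67) and its partner in synthesis Rdh10 (r = 0.63), all highest in D6 code 4. Aldh1a3 went with Mgp (r = 0.81), Thbs4 (r = 0.80) and Rflnb (r = 0.78), all highest in culture code 1. Rdh10 went with Cxcl12 (r = 0.81), Vcan (r = 0.80) and Laptm4a (r = 0.78). For Dhrs3 they were Tnfrsf1a (r = 0.94), Gpx8 (r = 0.90) and Gng12 (r = 0.90). Cyp26a1 went with Pga5 (r = 0.82), Foxa1 (r = 0.82) and Irs4 (r = 0.81), and Rbp4 with Irs4 (r = 0.83), Vtn (r = 0.78) and Ffar4 (r = 0.78). Cyp26b1 went with Papss2 (r = 0.81), Pmp22 (r = 0.81) and Pdgfra (r = 0.80), and Stra6 with Frem1 (r = 0.79), Cap2 (r = 0.77) and Cpm (r = 0.74). Aldh1a1 was left out of this for its few UMIs.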

How the data were processed

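Single-cell RNA sequencing (10x 3′ v3) was analysed for 3 libraries, with 1 library per group. The files deposited by the authors hold raw counts, whole UMIs per gene and cell, made with Cell Ranger with reads that map to several places ignored. The authors removed cells of high mitochondrial share and extreme size, and clustered with Seurat 3.0, with culture and tail integrated, so that equal code numbers there name the same cluster. The genome build of the counts is not given in the sources used here. Of the 7821, 2052 and 5954 cells, 1157, 100 and 1006 had under 3000 UMIs and were left out wherever cells were thinned to 3000 UMIs. The libraries shared 3 to 10 barcodes.

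UMIs were summed per code, divided by the summed total and given as CPM with exact 95% Poisson intervals, ratios with exact conditional binomial intervals, and shares with Clopper-Pearson intervals. A ratio was counted as different at 2-fold among genes with a UMI in at least 10% of cells of either side. A level of 0 was bounded by a floor of 3 counts. No p-values were computed. Doublets (137, 9 and 98 cells, by Scrublet in Scanpy 1.11.5 at an expected 6%, seed 1) were kept and left out only as an alternative. The calculation was tested on simulated data. Python 3.11.15, NumPy 2.4.6, SciPy 1.17.1, pandas 2.3.3 and Matplotlib 3.10.9 were used.

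The members, the list of 34 pathway genes, the list of 9 response genes and the marker lists were chosen with earlier results of these data known. Genes named are the members, list genes past 2-fold, the 3 genes most like each member that reached 50 CPM in a code of at least 50 cells, and, where stated, genes chosen after their values were seen. The alternatives were doublets, cells under 1000 genes, totals without mitochondrial, ribosomal protein and haemoglobin genes, means over cells, no condition on cells, scaling to the median ratio, 1.5-fold, and thinning to 5000 UMIs or none. Leaving out the 1% of cells with most UMIs of a member, and the comparison of D6 code 5, were added after the data were seen. Some list genes are not reported here.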

Additional observations from a re-analysis of the deposited data

Results flagged for a closer look

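The ratio of Rbp4 between code 4 and code 1 pointed in opposite directions in the 2 libraries that share these codes, at 0.598 for the culture against 4.10 for the tail, which made the tail ratio 6.86 times the culture ratio. The difference was not tested, since each library is 1 sample. The culture value rested on few cells, because the 10 cells with most Rbp4 UMIs held 89.1% of the 267 UMIs of culture code 1. It was 0.99 as a mean over cells and 3.87 without the 1% of cells with most Rbp4 UMIs in each code, where the tail ratio was 6.94. The 4 cells with at least 10 Rbp4 UMIs in culture code 1 had summed endoderm markers of 16897 CPM. Rbp4 in culture codes 4 and 1 was under 1% of its level in culture code 8, as were Krt8 and Ttr. Afp, however, was 2.80% in code 1, and Cyp26a1 was 10.7% and 5.62% in codes 4 and 1. With levels this low and few cells behind them, the culture ratio is not read as a difference in expression.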

How the results depend on the processing

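Over the 10 comparisons the number of members past 2-fold stayed within 1.5 times under 62 of 70 alternatives and no ratio past the line reversed. Without the condition on cells, the number became 7 for tail code 4 over code 1, 5 for culture over tail in code 1 and 4 in code 4, 7 for D6 code 1 over the rest, and 3 for D10 code 3 over D6 code 2, each with all 9 members tested. At 1.5-fold it became 5 for culture over tail in code 1 and 6 in code 2. As a mean over cells it became 1 for culture over tail in code 4. Of 468 alternative values of the members' ratios 414 moved by less than the counting interval, and most of the other 54 came with the 1% of cells left out, where the ratio of Aldh1a2 for culture over tail in code 1 was 0.12, that of Rbp4 for D10 code 1 over D6 code 4 was 0.15 in place of 1.32, and that of Cyp26a1 for D6 code 1 was 9.95 in place of 5.30. Without doublets the ratio of Rbp4 for D10 code 1 over D6 code 4 was 3.30. Of the members' levels in their highest code 16 of 100 alternative values moved, and 3 of 100 made another code the highest, each as a mean over cells (Aldh1a3 and Stra6 in the tail, Aldh1a1 in D6 PM). Of the shares of cells there, 27 of 50 moved with the number of UMIs a cell. Thinning to 5000 UMIs moved 2 of 47 pairs out of their interval, Rdh10 and Dhrs3 in culture code 1 (1.49) and Dhrs3 and Cyp26b1 in culture code 4 (1.97). No paired analysis was possible because each group was 1 library. The 3000 UMIs a cell and levels under 10 CPM limit what single cells can show, and a gene missed in a cell at this depth may still be expressed there.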

Other observations

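Cells of culture code 8 differed by their breakdown and carrier genes, as described here with genes picked after their values were seen. The 31 cells with Cyp26a1 had 0 UMIs of Afp, against 1538 CPM in the 124 cells without it, and 0 UMIs of Vtn and Fgb, against 508 and 181 CPM, while Plac8 (1679 against 89.3 CPM) and Car4 (826 against 28.9 CPM) were higher in them. The 31 cells with at least 10 Rbp4 UMIs had more Ghrl (897 against 2.46 CPM) and Ttr (1616 against 101 CPM) and summed cell cycle markers of 213 against 913 CPM in the 59 cells with no Rbp4.

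In tail code 4 the 23 cells with at least 2 Rbp4 UMIs had summed cartilage markers of 4745 CPM against 11304 CPM in the 207 cells with none, summed tendon markers of 5034 against 2442 CPM, and, among genes likewise picked after their values were seen, more Hhip (179 against 14.9 CPM) and Krt17 (242 against 18.2 CPM). In the Myog-high code 5 of the tail the 27 cells with Stra6 had summed cell cycle markers of 2055 against 660 CPM, at a median of 26499 against 13794.5 UMIs, and the part of depth was not tested.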
